A study of Mus musculus with 5 samples.

Results

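Interferon-stimulated effector genes encode the proteins with which cells restrict viruses once interferon has been sensed. A list of 42 such genes was looked up by gene symbol in the expression table of sorted mouse haematopoietic stem and progenitor cells (HSPCs), and 39 of them were among the 11352 listed genes. Ifit3, Mx1 and Mx2 were not analysed here. Per the labels, the sort kept cells without lineage markers or CD135 that carried KIT and SCA1. The Cux1-low group (2 libraries) came from mice with a Cux1 knockdown, and the Cux1-low;NrasG12D group (3 libraries, called NrasG12D libraries 1 to 3 below) from mice that carried an NrasG12D allele beside that knockdown. CUX1 is a DNA-binding homeodomain protein, and the G12D change keeps the GTPase NRAS active. All mice had been given doxycycline and pI:C for 4 weeks, and pI:C, an artificial RNA duplex, itself induces interferon, so no library here came from mice without an interferon stimulus. The promoter that drives the knockdown or the allele, the strain and age of the mice, pooling of animals, and the time between the last pI:C dose and the sort are not given in the sources used here. The comparison asks how the NrasG12D allele, on top of the knockdown, goes with the level of these effectors.

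Interferons bind cell surface receptors whose JAK kinases phosphorylate transcription factors of the STAT family. With IRF9 these bind a short DNA element, the interferon-stimulated response element, in the promoters of effector genes. The effectors cut, edit or sequester viral RNA, deplete nucleotides, tag proteins with ubiquitin or ISG15, or act on membranes. In bone marrow, interferon is known to bring quiescent stem cells into cycle, and stem cells are known to express part of this programme without infection.

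Depth was even: the libraries held 16489711 to 20262498 reads over the listed genes, and 1 read was worth 0.0481 to 0.0608 normalized CPM, the authors' depth-scaled read count. NrasG12D library 3 stood apart from the others of its group: without it limma called 4243 genes in place of 128. Counts of called genes are therefore also given without it. Of 10 stem cell markers 9 were listed, with Cux1-low sums of 2209 and 2220 and NrasG12D sums of 789 to 1354 normalized CPM. Kit, the receptor used for the sort, was at 1359 and 1373 against 477, 569 and 816 normalized CPM. Flt3, which encodes the CD135 that the sort excluded, was still listed at 326 and 388 against 196, 165 and 230. Of 8 T and NK cell markers only Nkg7 was listed, and of 10 neutrophil markers 4. The 8 listed B cell markers summed to 58.1 and 79.4 in the Cux1-low libraries. They summed to 269, 551 and 60.5 in NrasG12D libraries 1, 2 and 3. The 7 listed erythroid markers summed to 4378 and 4828 against 7563, 10344 and 5337, in the same order. For plasmacytoid dendritic cells, which make much interferon, 5 of 9 markers were listed, with sums of 229 and 260 against 200 to 217. Sums were 1015 and 1285 against 440 to 598 for conventional dendritic cells (7 of 8 listed), and 507 and 573 against 490 to 767 for monocytes (8 of 9). They were 7416 and 10486 against 19305, 12850 and 8053 for neutrophils, where Elane, Mpo, Prtn3 and Ctsg were the listed markers. Mpo alone was at 6253 and 8799 against 16346, 10968 and 6917. Ngp, Camp, Ltf, S100a8, S100a9 and Ly6g were not listed, so the sum does not show that neutrophils were present. Megakaryocyte sums (7 of 7 listed) were 1336 and 1386 against 723, 595 and 1225. In the stem cell, B cell, erythroid and megakaryocyte sums, library 3 was the NrasG12D library nearest to the Cux1-low values. For conventional dendritic cells it was library 1. Some sums cover mixed signs. Of the conventional dendritic cell markers, 5 had a negative log2 fold change (H2-Aa, H2-Ab1, H2-Eb1, Cd74 and Flt3) and 2 a positive one. The H2 genes and Cd74 serve MHC class II presentation, and Flt3 is the gate gene given above. The lower sum therefore does not stand for this cell type alone. Zbtb46 was higher, at 18.5 and 21.0 against 33.5, 49.7 and 22.9, and Itgax overlapped. Negative and positive signs were 3 and 2 for plasmacytoid dendritic cells, 3 and 5 for monocytes, and 8 and 1 for stem cells. The part that these markers have in the results below was not tested. In bulk RNA, fewer cells of a type and less RNA per cell cannot be told apart.

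Most effector genes had lower values in the NrasG12D libraries, but few of the differences passed the test against the spread between libraries. Of the 39 listed genes, 2 fell (Oasl2 and Trim21), 1 rose (Ifi204) and 36 did not pass (limma, adjusted p under 0.05 over all listed genes). Of all genes, 1.13% were called, 0.872% lower and 0.255% higher. An unadjusted p under 0.05 was reached by 24 of the 39 and by 31.4% of all genes. The median log2 fold change was -0.45 over the 39 genes (-0.57 without Ifi204) and -0.003 over all listed genes, and 32 of 39 had a negative sign against 50.3% of all genes. In 25 of the 39, every NrasG12D library lay below both Cux1-low libraries, which held for 27.0% of all genes. In 3 others (Ifi204, Isg20 and Trim25) every NrasG12D library lay above, which held for 26.5% of all genes, and in the other 11 the groups overlapped. A further 18 of the 39 had an adjusted p from 0.05 to 0.1, as did 15.3% of all genes. Ifi204 was the only listed member that was not above 1 normalized CPM in both Cux1-low libraries, and it entered the table through its NrasG12D values. These counts describe genes that earlier results had already shown to be lower as a list, and are no independent support.

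The authors' deposited table, which called more genes in all, had 19 of the 39 called lower and 1 higher, where it called 9.14% of all genes lower and 6.97% higher. All 39 had the same sign there as in the limma fit. Without NrasG12D library 3, limma called 22 lower and 4 higher, but in that fit 19.4% of all genes were called lower and 18.0% higher. The 4 were Ifi204, Isg20, Oasl1 and Trim25, with limma adjusted p of 0.00376, 0.0135, 0.0259 and 0.0277. Among the 22 was Ifi203 (limma adjusted p = 0.0109). The groups of Oasl1 and Ifi203 overlap when library 3 is kept. Without any 1 of the other 4 libraries, 0 of the 39 passed limma, with 14 to 22 at an unadjusted p under 0.05, which 11.8% to 22.9% of all genes reached in these fits. Oasl2 then had an adjusted p of 0.365 and 0.328 without Cux1-low library 1 or 2, and 0.158 and 0.0604 without NrasG12D library 1 or 2, in limma fits that keep its direction. Trim21 had 0.365, 0.330, 0.162 and 0.0813 and Ifi204 had 0.365, 0.327, 0.152 and 0.0620 in the same limma fits.

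**Figure D1:**
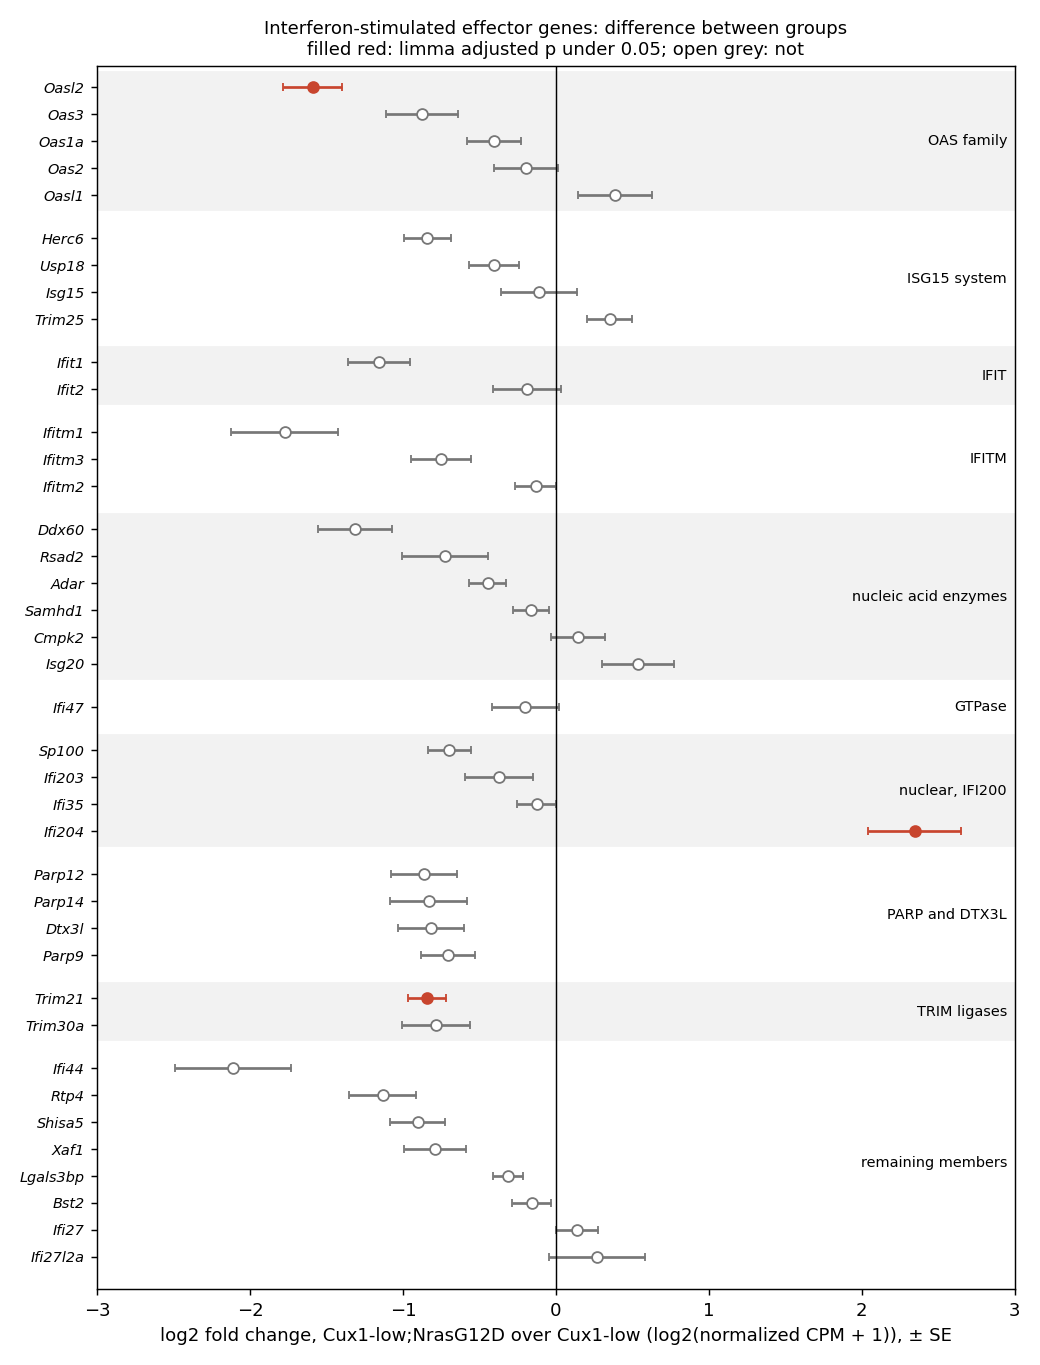
Log2 fold change (Cux1-low;NrasG12D over Cux1-low, on the log2(normalized CPM + 1) scale) of the 39 listed effector genes, ordered by role, with bars of 1 standard error from limma. Oasl2, Trim21 and Ifi204 (filled) passed an adjusted p of 0.05, and 32 of the 39 points lie left of 0.

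The response element itself can be read in the promoters, and its letters are shown here because STAT and IRF complexes bind them. RefSeq promoter windows of 300 bases (250 before to 50 after the transcript start, build GRCm38.p6, which is mm10) matched 31 of the 39 genes by symbol. The pattern searched was GAAA, any 2 bases and a further GAAA, on either strand, and it was present in a window of 13 of these 31 genes (41.9%), against 3.99% of all 27025 genes with a window and 3.78% of the 8724 listed genes with a window. Of the 20 matched genes with all NrasG12D values below both Cux1-low values, 9 held it, and of the other 11 matched genes 4 did. The lines below give the stretch around the match in Trim21, which fell, in 4 members with non-overlapping lower values, and in 3 whose groups overlapped (Ifitm2, Bst2 and Isg15), with the match in capitals, 5′ to 3′ on the strand of the gene.
Trim21: tgagagGAAACTGAAAGTGAAAtttgga
Ddx60: tgaatgGAAACCGAAActtaaa
Ifit1: tctcagTTTCAGTTTCtcactg
Oas3: ggaggaGAAAACGAAAgtgaag
Ifitm3: ttctgaGAAACCGAAActgccg
Ifitm2: caacagGAAAAGGAAAttgcta
Bst2: ttccagGAAAATGAAACTGAAAggctgc
Isg15: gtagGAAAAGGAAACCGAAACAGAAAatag
These lie at chr7:102565448-102565475 (minus strand), chr8:61928028-61928049 (plus), chr19:34640798-34640819 (plus), chr5:120777719-120777740 (minus), chr7:141010710-141010731 (minus), chr7:140955992-140956013 (minus), chr8:71537581-71537608 (minus) and chr4:156200871-156200900 (minus). The Trim21 stretch holds 2 overlapping matches, the first of which begins 13 bases after the annotated start, so it lies in the transcribed region. The printed Ifitm3 match begins 19 bases after the start and lies there too. Ddx60, Ifit1 and Ifitm3 each hold 1 further match in the window, outside the lines above. Isg15 holds 3 overlapping matches and Bst2 holds 2, and neither gene was called. All but Trim21 were chosen after their values were seen. A match describes letters and is not evidence of binding.

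Whole upstream stretches show how matches sit in a promoter. They are given for Oasl2, the called gene whose window held no match, for Ifit1, with separate matches, and for Isg15, with fused ones. Ifi204, also called, had no window and could not be searched. Ifit1 and Isg15 were chosen after their values were seen. Each stretch is the 250 bases before the start, with that pattern or its reverse complement in capitals.
Oasl2: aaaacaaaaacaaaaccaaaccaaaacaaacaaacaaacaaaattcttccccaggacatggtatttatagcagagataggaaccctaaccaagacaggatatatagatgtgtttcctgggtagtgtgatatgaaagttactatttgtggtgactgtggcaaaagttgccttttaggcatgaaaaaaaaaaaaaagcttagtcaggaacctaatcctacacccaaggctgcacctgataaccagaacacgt
Ifit1: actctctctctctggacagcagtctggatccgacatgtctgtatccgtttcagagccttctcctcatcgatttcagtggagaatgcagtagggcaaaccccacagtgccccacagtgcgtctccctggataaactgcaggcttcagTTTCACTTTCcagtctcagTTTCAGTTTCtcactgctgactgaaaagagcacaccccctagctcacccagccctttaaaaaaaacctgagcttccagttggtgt
Isg15: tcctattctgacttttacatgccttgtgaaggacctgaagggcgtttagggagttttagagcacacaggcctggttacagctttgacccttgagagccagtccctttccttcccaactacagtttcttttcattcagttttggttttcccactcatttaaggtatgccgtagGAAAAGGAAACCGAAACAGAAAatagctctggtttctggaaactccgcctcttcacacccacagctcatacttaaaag
Their positions are chr5:114896684-114896933 (plus strand), chr19:34640639-34640888 (plus) and chr4:156200819-156201068 (minus). The Oasl2 stretch has no match of the pattern and none of the shorter GAAANNGA, which says only that these letters are not in this window.

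The oligoadenylate synthetase (OAS) family senses double-stranded RNA. OAS enzymes make a messenger that switches on the RNA-cutting enzyme RNase L. Oasl2 (chromosome 5, 114896936 to 114912234, plus strand) had values of 28.1 and 26.1 in Cux1-low libraries 1 and 2, against 7.44, 7.53 and 10.3 in NrasG12D libraries 1, 2 and 3, the order used for all genes below. The groups were far apart, and library 3 was the highest of its group. Oasl2 fell (log2 fold change -1.59, SE 0.19, limma adjusted p = 0.0327), from a mean of 27.1 ± 1.38 (SD, n = 2) to 8.41 ± 1.61 (SD, n = 3), which is 3.22-fold lower. Its neighbour Oasl1 (114923240 to 114937915), which is known to limit translation of the interferon regulator IRF7, did not share that pattern. Oasl1 was at 16.2 and 19.0 against 25.2, 29.2 and 16.9 normalized CPM, with library 3 between the Cux1-low values (log2 fold change 0.38, SE 0.24, limma adjusted p = 0.306). The difference between the neighbours was seen in the data and was not tested.

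The other OAS genes lie in a cluster further along chromosome 5. Oas3 was at 17.3 and 14.1 against 6.001, 8.90 and 9.72 normalized CPM (log2 fold change -0.88, SE 0.24, limma adjusted p = 0.0828). All 3 NrasG12D values lay below both Cux1-low values. Oas1a was at 15.0 and 15.1 against 12.5, 9.59 and 11.5, and Oas2 at 3.53 and 3.95 against 2.82, 3.31 and 3.28. Both pairs of groups were apart by small margins, with limma adjusted p of 0.172 and 0.541. Oas1a has close copies in the genome, so its reads may be shared with them.

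IFIT proteins bind foreign RNA ends and block their translation, and IFITM proteins sit in membranes and hinder virus entry. Ifit1 (chromosome 19, 34640871 to 34650009, plus strand) was at 11.2 and 9.58 normalized CPM against 3.64, 3.99 and 4.74. The groups did not overlap and the NrasG12D mean was 2.52-fold lower (log2 fold change -1.16, SE 0.20, limma adjusted p = 0.0511). Ifit2, on the same chromosome (34550694 to 34576419, plus strand), was at 45.1 and 32.01 against 26.5, 34.5 and 40.0. These values overlapped, with a log2 fold change of -0.19 (SE 0.22).

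The 3 Ifitm genes lie side by side on chromosome 7 and differed among themselves. Ifitm1 (140967221 to 140969825, plus strand) had 172 and 141 normalized CPM against 48.7, 26.9 and 68.4. Library 2 was the lowest and library 3 the highest, and the mean was 3.26-fold lower (log2 fold change -1.77, SE 0.35, limma adjusted p = 0.0580). Ifitm3, the best known restrictor of influenza virus among them, was at 189 and 161 against 117, 78.9 and 118, a mean 1.67-fold lower (log2 fold change -0.75, SE 0.20, limma adjusted p = 0.0801). Ifitm2 was at 194 and 181 against 174, 148 and 194, so that library 3 reached the Cux1-low level (log2 fold change -0.13, SE 0.13). These genes are close copies of each other, and how reads divide between them is uncertain. The differences between them were not tested.

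**Figure D2:**
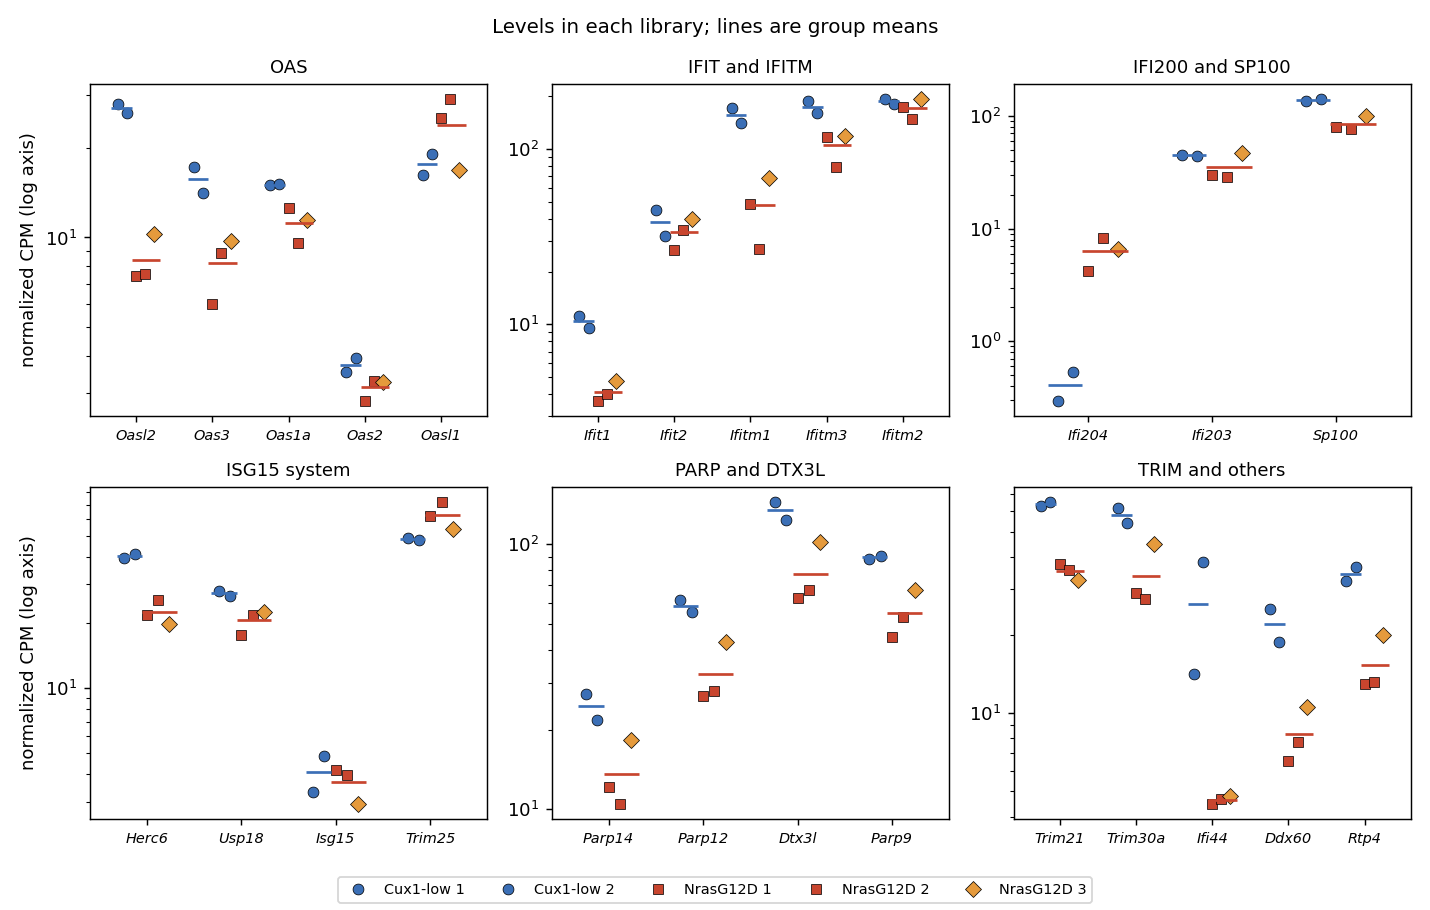
Normalized CPM (log axis) of effector genes in each of the 5 libraries, in panels by family, with the group means as lines. Blue circles are Cux1-low libraries, red squares NrasG12D libraries 1 and 2, and orange diamonds NrasG12D library 3; Oasl2 and Ifitm1 separate the groups while their relatives Oasl1 and Ifitm2 do not.

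ISG15 is a ubiquitin-like protein that is attached to other proteins. In mice HERC6 is the main ligase for that step and USP18 removes ISG15 and dampens the interferon receptor, while TRIM25 is a ubiquitin ligase that activates the RNA sensor RIG-I. Herc6 was at 39.8 and 41.3 normalized CPM against 21.7, 25.5 and 19.7, a mean 1.82-fold lower (log2 fold change -0.84, SE 0.15, limma adjusted p = 0.0533). Library 3 was the lowest value here. Usp18 was at 28.0 and 26.7 against 17.5, 21.7 and 22.4, below both Cux1-low libraries in each case (limma adjusted p = 0.148). Isg15 itself was low, at 3.33 and 4.86 against 4.21, 3.99 and 2.92, and the groups overlapped. It rested on 48 to 101 reads per library. Trim25 was at 49.2 and 48.1 against 61.9, 72.1 and 54.2, above both Cux1-low libraries in all 3 (log2 fold change 0.35, SE 0.15, limma adjusted p = 0.155).

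Enzymes that act on nucleic acids or nucleotides were divided. Ddx60, a helicase linked to RNA sensing, was at 25.1 and 18.8 normalized CPM against 6.56, 7.76 and 10.6. The groups did not overlap and the mean was 2.65-fold lower (log2 fold change -1.31, SE 0.24, limma adjusted p = 0.0529). Rsad2, which encodes viperin, the maker of a chain-terminating nucleotide, was at 12.5 and 10.8 against 4.62, 6.56 and 9.42 (log2 fold change -0.72, SE 0.28, limma adjusted p = 0.139). Library 3 came close to the Cux1-low level. Adar, the enzyme that edits adenosine to inosine in double-stranded RNA, was at 149.6 and 139 against 95.4, 106 and 116 (log2 fold change -0.45, SE 0.12, limma adjusted p = 0.0806). The exonuclease gene Isg20 was higher in all 3 NrasG12D libraries, at 52.5 and 52.3 against 75.5, 104 and 56.7 (log2 fold change 0.54, SE 0.24, limma adjusted p = 0.172). Its library 3 value was near the Cux1-low level. Cmpk2, a mitochondrial nucleotide kinase and the neighbour of Rsad2, was at 58.2 and 60.2 against 60.8, 82.4 and 56.1, which overlapped. Samhd1, which breaks down the building blocks of DNA, was at 69.95 and 69.4 against 67.7, 58.9 and 59.9 (log2 fold change -0.16, SE 0.12).

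The only listed GTPase of the group, Ifi47, belongs to the immunity-related GTPases that attack the vacuoles of parasites. It was at 264 and 225 against 219, 159 and 273 normalized CPM, so library 3 had the highest value of all (log2 fold change -0.20, SE 0.22, limma adjusted p = 0.552).

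Among nuclear proteins, Ifi204 moved against the rest. Ifi204 (chromosome 1, 173747293 to 173766943, minus strand) belongs to the IFI200 family, whose members bind DNA, and it is the mouse gene often set beside the human DNA sensor IFI16. Cux1-low values were 0.294 and 0.529 normalized CPM, which are 6 and 11 reads. NrasG12D values were 4.21, 8.27 and 6.56, which are 82, 145 and 108 reads. The ratio of the means was 15.4, and the log2 fold change, which the added 1 makes smaller for so low a gene, was 2.34 (SE 0.30, limma adjusted p = 0.0354). Ifi204 thus rose, but a gene listed only through its NrasG12D values had to differ. Here library 3 lay between libraries 1 and 2. In the authors' deposited table the log2 fold change of Ifi204 was 3.92. Family members share long stretches of sequence, so which copy the reads came from is uncertain.

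Ifi203, further along the same cluster, was at 45.4 and 43.7 against 29.6, 28.6 and 46.9, with library 3 above both Cux1-low libraries. Its exons overlap those of its relative Mndal on the same strand, which was at 51.4 and 60.8 against 47.0, 43.7 and 58.0. Neither was called (limma adjusted p of 0.286 and 0.460). Sp100, the gene of a nuclear body protein, was at 135 and 142 against 79.0, 77.0 and 100.2 normalized CPM, a mean 1.62-fold lower (log2 fold change -0.70, SE 0.14, limma adjusted p = 0.0590). Ifi35 was at 67.8 and 75.2 against 71.5, 60.0 and 64.9, which overlapped.

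PARP9, PARP12 and PARP14 belong to the family of ADP-ribose transferases, and DTX3L is a ubiquitin ligase that works as a pair with PARP9. The genes were alike in size of difference, with log2 fold changes of -0.71 to -0.86, but none passed limma. In all 4 every NrasG12D library lay below both Cux1-low libraries, which held for 27.0% of all genes. Parp9 was at 88.4 and 90.3 normalized CPM against 44.6, 53.2 and 67.6 (log2 fold change -0.71, SE 0.18, limma adjusted p = 0.0765). Dtx3l was at 145 and 124 against 62.6, 67.4 and 102 (log2 fold change -0.82, SE 0.22, limma adjusted p = 0.0806). These genes lie head to head on chromosome 16 (35938470 to 35972605, plus strand, and 35926511 to 35939151, minus strand) and their exons overlap on opposite strands, so reads from the shared part cannot be told apart without strand. Parp14, on the same chromosome (35832874 to 35871544, minus strand), was at 27.3 and 21.8 against 12.2, 10.4 and 18.3 (limma adjusted p = 0.0934). Parp12, on chromosome 6, was at 61.9 and 55.5 against 26.8, 27.9 and 42.9 (limma adjusted p = 0.0765). In all 4 genes library 3 had the highest NrasG12D value.

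TRIM proteins are ubiquitin ligases. Trim21 (chromosome 7, 102557921 to 102565486, minus strand), a receptor for antibodies that enter the cell with a virus, was at 62.8 and 65.1 normalized CPM against 37.4, 35.6 and 32.6. Trim21 fell (log2 fold change -0.84, SE 0.12, limma adjusted p = 0.0430), from 64.0 ± 1.65 (SD, n = 2) to 35.2 ± 2.43 (SD, n = 3), 1.82-fold lower. Here library 3 was the lowest, and the 3 NrasG12D values were close together. Trim30a was at 61.8 and 53.9 against 29.0, 27.6 and 44.8 (log2 fold change -0.79, SE 0.22, limma adjusted p = 0.0863), with library 3 nearest to the Cux1-low level. It has near copies beside it on chromosome 7.

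The remaining 8 members act at membranes, in mitochondria or outside the cell, or have less defined roles. Ifi44 had the most negative log2 fold change of the 39 genes (-2.11, SE 0.38, limma adjusted p = 0.0519). Its Cux1-low libraries differed widely, at 14.1 and 38.3 normalized CPM, while the NrasG12D libraries were close together at 4.46, 4.68 and 4.80. Its log2 fold change was -1.42 without Cux1-low library 2 and -2.80 without Cux1-low library 1. Rtp4, named for a role in moving receptors to the cell surface, was at 32.2 and 36.5 against 12.9, 13.2 and 20.05 (log2 fold change -1.13, SE 0.22, limma adjusted p = 0.0572). Shisa5, whose product sits in the endoplasmic reticulum, was at 229 and 280 against 131, 113 and 165 (log2 fold change -0.90, SE 0.18, limma adjusted p = 0.0579). Xaf1, a binding partner of the apoptosis inhibitor XIAP, was at 13.6 and 12.9 against 6.51, 6.51 and 8.87 (log2 fold change -0.79, SE 0.20, limma adjusted p = 0.0784). In these 3 genes every NrasG12D library lay below both Cux1-low libraries, which held for 27.0% of all genes, and library 3 was the highest NrasG12D library.

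Lgals3bp, a secreted glycoprotein gene, was at 376 and 344 normalized CPM against 285, 296 and 286, a mean 1.25-fold lower (limma adjusted p = 0.0962). Bst2, the gene of tetherin, which holds budding virus on the cell surface, was at 56.1 and 56.8 against 56.3, 47.9 and 47.8, and the groups overlapped. Ifi27 was at 83.2 and 64.4 against 82.0, 79.8 and 80.1, and Ifi27l2a at 1.96 and 2.07 against 2.77, 3.94 and 1.58. Neither was called, and both overlapped.

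**Figure D3:**
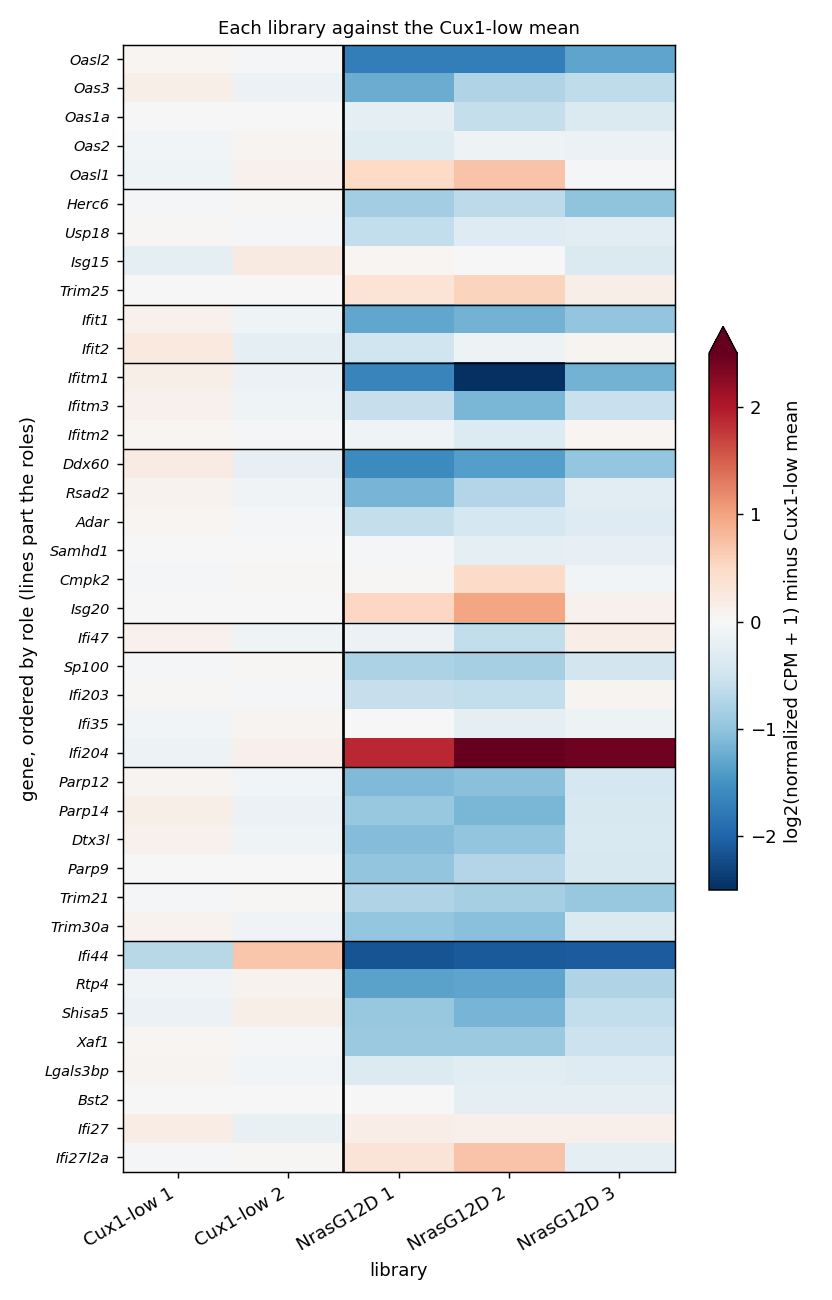
Difference of each library from the Cux1-low mean, on the log2(normalized CPM + 1) scale, for the 39 effector genes ordered by role; blue is lower and red is higher, and the scale stops at 2.5. NrasG12D libraries 1 and 2 are blue for most genes (medians -0.59 and -0.62), library 3 is paler (-0.36), and Ifi204 is red in all 3.

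Library by library, the median difference from the Cux1-low mean over the 39 genes was -0.59, -0.62 and -0.36 on the log2 scale in NrasG12D libraries 1, 2 and 3. Over all listed genes the same medians were -0.008, -0.001 and 0.005. The summed level of the 39 genes was 2945 and 2805 normalized CPM against 2036, 1961 and 2299. Among the 25 genes with all NrasG12D values below both Cux1-low values, library 3 was the highest NrasG12D library in 19. In the other 6, among them Trim21 and Herc6, it was not.

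Interferon receptors and the JAK-STAT pathway carry the signal to these effectors. Of 15 listed genes for them, 12 had a negative sign, against 50.3% of all genes, and the median of the list was -0.24. The feedback inhibitor gene Socs1 was at 12.6 and 11.2 against 6.87, 4.39 and 6.80 (limma adjusted p = 0.0801).

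Of 9 listed IRF family genes 0 passed limma, 5 had an unadjusted p under 0.05, and the median was -0.44. Of all genes, 1.13% passed limma and 31.4% had an unadjusted p under 0.05. The authors' deposited table called 2 of the 9 lower and 1 higher, where it called 9.14% of all genes lower and 6.97% higher. The higher one, named after its values were seen, was Irf8, at 116 and 123 against 435, 350 and 120. Its library 3 value lay between the Cux1-low values (limma adjusted p = 0.167). Irf1 was at 209 and 205 against 118, 93.4 and 134 (limma adjusted p = 0.0533), and Irf9, which completes the complex that binds the response element, at 111 and 114 against 80.5, 76.6 and 77.0 (limma adjusted p = 0.0567). Of 16 listed sensors and adaptors 0 passed limma, 7 had an unadjusted p under 0.05, against 31.4% of all genes, and the median was -0.36. The authors' deposited table called 4 of these lower, against 9.14% of all genes. The kinase gene Ikbke was at 46.2 and 54.3 against 26.7, 24.3 and 29.9 (limma adjusted p = 0.0508), and the RIG-I relative Dhx58 at 41.1 and 45.9 against 21.7, 26.6 and 28.4 (limma adjusted p = 0.0630).

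The IRG and GBP GTPases, which act against intracellular parasites, had the lowest median of the 6 pathway lists (-1.16). Of 12 listed, 5 fell and 7 did not pass, where limma called 0.872% of all genes lower. Iigp1 was at 71.7 and 44.7 normalized CPM against 15.6, 9.59 and 13.9, a mean 4.47-fold lower, and Irgm2 at 53.5 and 41.3 against 13.5, 12.4 and 19.4. Igtp was at 143 and 119.8 against 64.6, 49.4 and 62.0, and Gbp9 at 7.35 and 6.88 against 2.26, 1.48 and 1.76. These 4 fell, with limma adjusted p of 0.0354, 0.0411, 0.0382 and 0.0430. The fifth, chosen after its values were seen, was Gbp7 (limma adjusted p = 0.0498). Gbp9 lost its call with a pseudocount of 0.1 (limma adjusted p = 0.0522) or a filter of 5 normalized CPM (limma adjusted p = 0.0529).

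Of 12 listed MHC class I and peptide loading genes, 1 fell and 11 did not pass (median -0.42), where 0.872% of all genes fell. The gene that fell was Nlrc5, the transactivator of MHC class I genes. Nlrc5 was at 113 and 106 against 44.6, 48.2 and 58.9 (log2 fold change -1.11, SE 0.15, limma adjusted p = 0.0355). The peptide transporter gene Tap1 was at 488 and 454 against 309, 258 and 305 (limma adjusted p = 0.0508). Of 19 listed paralogues and further interferon-inducible genes, 1 fell and 18 did not pass (median -0.51), against the same 0.872% of all genes. Trim30d was at 14.1 and 14.4 against 5.74, 4.62 and 5.47 (log2 fold change -1.28, SE 0.18, limma adjusted p = 0.0430), and Trim34a at 17.3 and 16.8 against 8.82, 7.76 and 7.72 (limma adjusted p = 0.0508). Ly6a, which encodes the SCA1 of the sort and is itself induced by interferon, was at 44.7 and 48.7 against 24.2, 14.2 and 37.7. Being part of the gate, it is given as a value only. Over the 6 pathway lists limma called 8 of 83 listed genes, all lower, and of all genes it called 0.872% lower. It called 0 when either Cux1-low library or NrasG12D library 1 was left out, 1 without NrasG12D library 2, and 47 without NrasG12D library 3, a fit that calls 37.4% of all genes.

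**Figure D4:**
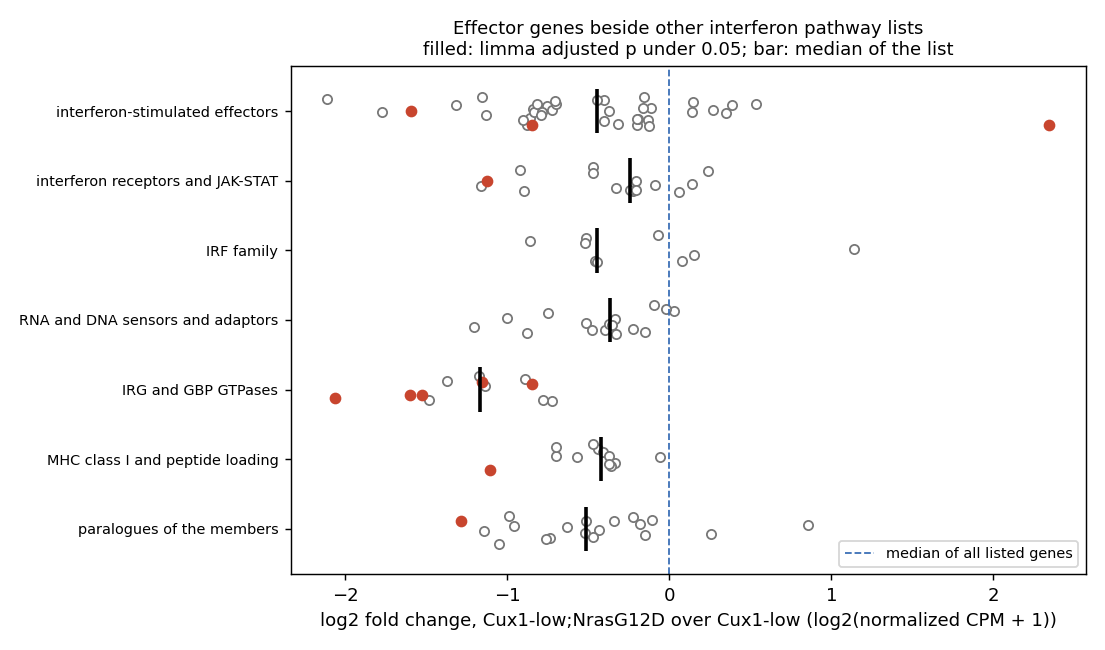
Log2 fold change (log2(normalized CPM + 1) scale) of the listed genes of the effector list and of 6 other interferon pathway lists, with the list medians as bars and the median of all listed genes as a dashed line. All 7 medians lie left of the dashed line, from -0.24 for receptors and JAK-STAT genes to -1.16 for the IRG and GBP GTPases; filled points passed limma at an adjusted p of 0.05.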

How the data were processed

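RNA had been isolated with Trizol and made into Illumina TruSeq v2 libraries, per the labels' protocols. TopHat, HTSeq and edgeR, with builds hg19 and mm10, are listed without roles in the submitters' processing notes. The authors deposited 1 signal value per gene and library, headed CPM per the file headers. Column sums of 971746 to 1026780 show a further scaling, so these values are called normalized CPM. All values were whole multiples (tolerance 0.001 of a step) of 1 step per library, taken as 1 read. No count test was run on these inferred reads. Each of the 11352 listed genes was above 1 in at least 3 of 5 libraries, so a gene present only in the Cux1-low group could not be listed. The deposited table also holds the authors' log2 fold change, mean log2 CPM, likelihood ratio score, p-value and adjusted p-value.

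limma 3.58.1 (R 4.3.3) with a trended variance was fitted to log2(normalized CPM + 1) over all genes that reached 1 in 2 or more libraries. The fit had no block, was 2-sided, and was adjusted by Benjamini and Hochberg with a threshold of 0.05. It was tested on simulated data. The labels do not say that libraries came from separate animals, so the p-values reflect only how these samples spread, which may be technical. Named with all values were members past the threshold, members with non-overlapping groups and an absolute log2 fold change of at least 0.5, and otherwise the smallest p of each role; the other 17 (log2 fold change -0.45 to 0.38, adjusted p 0.0806 to 0.779) were to be given by range only, and their values were added after they had been seen. For pathway lists up to 4 called genes, or the 2 with the smallest p, were named. The result of 1 gene that this rule names is not reported here. The members and lists were chosen with earlier results of these data known. Coordinates are GENCODE M21 on mm10. Exons of 13 members overlap those of another gene, 7 of them on the opposite strand, and no source used here says if counting was stranded. Python 3.11.15 with pandas 2.3.3, numpy 2.4.6 and matplotlib 3.10.9 made tables and figures. Alternatives were other pseudocounts, filters, variance priors and scalings, a replicate block, and leaving out each library.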

Additional observations from a re-analysis of the deposited data

How the results depend on the processing

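Dropping the filter could change nothing, because the main filter removed no gene. The 3 calls among the effector genes (Oasl2, Trim21 and Ifi204) held under pseudocounts of 0.5 and 0.1 and a filter of 5 normalized CPM. The calls also held in limma without a trend or with a robust prior, both other scalings, the replicate block and without NrasG12D library 3. They were lost without any 1 of the other 4 libraries. Leaving out each library gave 0 to 26 called effector genes, 0 to 47 called genes of the other pathway lists and 3 to 4243 called genes in all. With 1 Cux1-low library left, that library was assumed to vary like the other group. Columns rescaled to equal sums gave 7 effector genes (6 lower and 1 higher, against 2 and 1), 16 pathway genes against 8, and 213 genes in all against 128. Quantile normalization gave 4 effector genes (3 lower and 1 higher), 16 pathway genes and 228 in all. The replicate block gave 26 effector genes, 52 pathway genes and 4163 in all; since number 3 exists in only 1 group, this fit takes nothing from NrasG12D library 3. The numbers pair no samples in the labels, and same-numbered libraries' deviations correlated at -0.12 over genes. For the motif, the shorter GAAANNGA gave 58.1% of members against 41.9% with the main pattern, and in all genes 23.4% and 3.99%. TTCNNNGAA, a different pattern and not a variant of that motif, gave 29.0% of members and 9.55% of all genes. Signs of small uncalled log2 fold changes turned: Oas2 to 0.029 and Isg15 to 0.11 under quantile normalization, and Isg15 to 0.017 with the replicate block. Leaving out each library gave -0.33 to 0.11 for Isg15, -0.43 to 0.052 for Ifit2, -0.045 to 0.32 for Ifi27, -0.38 to 0.0060 for Ifi47 and -0.018 to 0.25 for Cmpk2. Of 53 genes named with a fold change, the others kept their sign in every alternative run. The cause of these shifts was not tested. Ifi204 rested on 6 and 11 reads in the Cux1-low libraries, which limits its ratio.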
